A study of Danio rerio with 16 samples.

Results

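Brain transcript levels of zebrafish in the strains labelled SH and Gaighatta were set against those in the strains labelled TM1 and Nadia. All 16 arrays of the study entered the comparison, 8 on each side, and each side held 1 strain labelled domesticated (SH or TM1) and 1 labelled wild (Gaighatta or Nadia), so the contrast cuts across rearing history. Each strain was represented by 2 female and 2 male pools, and each pool held the brains of 2 to 5 fish. This range is that of the deposited description, and the paper gives a higher lower bound. The fish were untreated adults, 4 to 6 months old, that had been reared in 1 facility, scored for behavior and sampled under anesthesia, and 10 µg of total RNA was used per Affymetrix Zebrafish Genome Array. TM1 is a transgenic line that expresses green fluorescent protein (GFP), and none of the other strains is described as transgenic. Pools are named here by labelled strain, sex (F or M) and replicate number.

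The strain labels are in doubt. A GFP control probe set read 8.58 to 10.46 on the log2 scale in the 4 pools labelled Gaighatta, against 2.80 to 2.97 in SH, 2.99 to 3.36 in TM1 and 2.93 to 3.18 in Nadia. The arrays labelled SH, Gaighatta, TM1 and Nadia also carry, value by value, the numbers that the study prints under the names Nadia, TM1, Gaighatta and SH. Under those printed names the comparison would be Nadia and TM1 against Gaighatta and SH. The same 8 pools stand on each side and each side still mixes a wild and a domesticated strain, so the values and signs below do not depend on which naming is right, but the strain names do. Every strain name below is the deposited label.

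Values were deposited for 7958 probe sets. After 36 array controls were set aside, 7922 were compared. Of these, 5639 carried 1 gene symbol, 54 several and 2229 none, for 4922 genes in all. Values are log2 expression values, so a difference of 1 is a doubling. Array medians lay between 6.08 and 6.20. Correlations across probe sets were 0.967 to 0.988 between pools of 1 strain, 0.950 to 0.980 between the 2 strains of a side and 0.936 to 0.978 between strains of different sides, ranges that overlapped. Pools of 1 strain share its genetic background, and each side had only 2 strains. The p values therefore measure the spread among pools of these 4 strains and say nothing of other strains.

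With a mean fitted for each strain, 1158 probe sets (14.6% of those tested) differed between the sides at an adjusted p under 0.05 in limma. Of these, 659 (8.32%) were higher and 499 (6.3%) lower in SH and Gaighatta, and 2387 had an unadjusted p under 0.05. Most differences were small, with a median size of 0.36 among the called probe sets. Only 81 reached 2-fold, 26 of them higher and 55 lower. The same arrays gave 1011 calls (12.8%) for domesticated minus wild labels and 635 (8.02%) for SH and Nadia minus TM1 and Gaighatta, 2 contrasts that use the same 16 pools.

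The number of calls differed among pairs of strains. Gaighatta and SH, which stand on the same side, differed from each other in 1354 probe sets (17.1%), while TM1 and Nadia differed in 251 (3.17%). Gaighatta differed from TM1 in 1654 probe sets (20.9%) and from Nadia in 1131 (14.3%), while SH differed from TM1 in 526 (6.64%) and from Nadia in 448 (5.66%). Among the 1158 called probe sets, both pairs with Gaighatta passed in 506 and both pairs with SH in 119. All 4 pairs across the sides passed in 28 (0.353%), 14 higher and 14 lower. When strain was treated as a random block, 8 probe sets were called. On the 4 strain means alone limma called 0, with 442 of 7922 at an unadjusted p under 0.05. No probe set differed between the sexes in the size of the contrast at an adjusted p under 0.05. At an unadjusted p under 0.05, 287 of 7922 (3.62%) did. All 1158 had the same sign in female and male pools. They were called on strain means over both sexes, which favors equal signs, so this count does not measure agreement between the sexes. Fitted alone, female pools gave 417 calls and male pools 108.

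**Figure D1:**
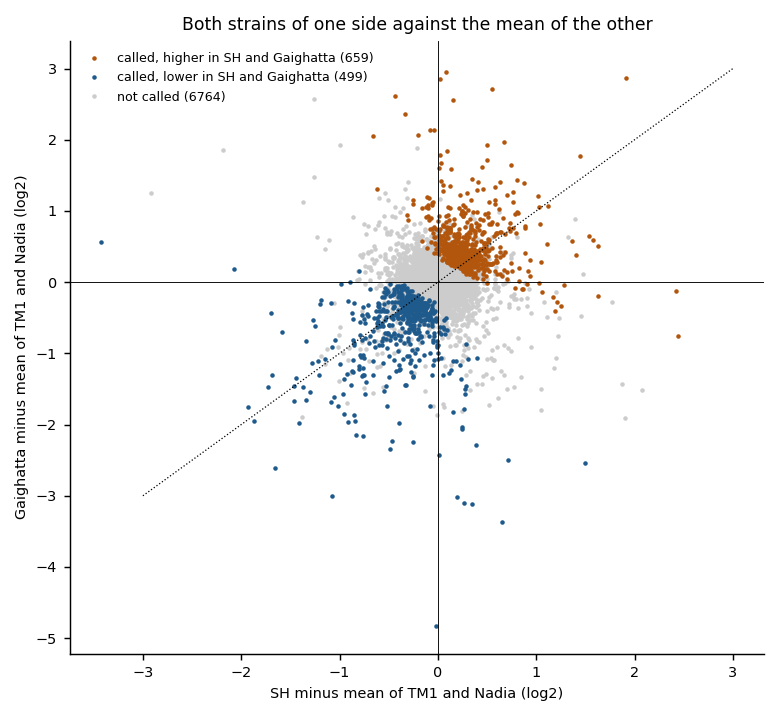
Each point is 1 of 7922 probe sets, with the SH strain mean minus the average of the TM1 and Nadia means on the x axis and the Gaighatta mean minus the same average on the y axis (log2). Most of the 659 probe sets called higher lie above and to the right and most of the 499 called lower below and to the left, with exceptions such as scamp5a and wls, which were called lower but lie right of the vertical line. Points near the vertical line are probe sets in which SH was close to the average of TM1 and Nadia.

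Vertebrate brains keep circadian time with a transcriptional loop in which CLOCK and BMAL proteins activate their own repressors, the period and cryptochrome proteins, and with side loops run by nuclear receptors and bZIP factors. In zebrafish many cells are themselves light-responsive, and light induces several of these genes directly. Clock genes were called in both directions. Of 27 measured clock genes, 11 were higher and 6 lower in SH and Gaighatta, with a median difference of 0.29, while 8.07% of all 4922 genes were higher and 5.75% lower, with a median of 0.025.

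The largest increase of the whole table was in ciarta, a repressor of CLOCK and BMAL activity. It read 6.28, 7.92, 7.10 and 5.47 in SH pools F1, F2, M1 and M2 and 8.21, 7.77, 7.14 and 7.48 in Gaighatta, against 4.18, 3.80, 4.38 and 3.96 in TM1 and 5.11, 4.66, 4.38 and 7.79 in Nadia. The sides overlapped through 1 pool, Nadia M2, which lay among the Gaighatta values. The fitted difference was 2.39 (SE 0.42, adjusted p = 0.00151).

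Other repressors of the loop were higher as well. bhlhe41, a basic helix-loop-helix repressor, ran from 8.85 to 10.19 (median 9.52) in SH and Gaighatta against 8.18 to 9.76 (median 8.42) in TM1 and Nadia, a difference of 0.96 (SE 0.19, adjusted p = 0.00288). The highest value of the TM1 and Nadia side was again Nadia M2, and the other 7 pools there were at most 8.47. nr1d2b, a REV-ERB nuclear receptor that represses bmal transcription, lay between 9.46 and 10.06 (median 9.80) against 8.44 to 9.87 (median 8.94), higher by 0.78 (SE 0.11, adjusted p = 0.000332), and its other probe set gave 0.78 too. per2, a light-inducible period gene, spread from 8.01 to 9.65 (median 9.20) against 7.60 to 9.36 (median 8.07), with a difference of 0.83 (SE 0.21, adjusted p = 0.0146) and 0.70 at the other probe set. For per2 the overlap came from both sides, with SH M2 low at 8.01 and Nadia M2 high at 9.36. The cryptochromes split by gene. cry1a (0.51), cry1b (0.61) and cry2 (0.58) were higher and cry3b (−0.50) was lower, while cry3a, cry4 and cry5 did not pass.

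cry-dash, a member of the photolyase and cryptochrome family, was 4.30 to 6.13 (median 5.83) in SH and Gaighatta against 3.68 to 5.63 (median 4.09) in TM1 and Nadia, a difference of 1.20 (SE 0.22, adjusted p = 0.00184). Its other probe set gave 0.74. tefa and tefb are PAR bZIP activators that bind D-box elements. tefa had no overlap between the sides at 1 of its probe sets, with 9.38 to 9.77 (median 9.57) in SH and Gaighatta against 8.72 to 9.36 (median 8.89) in TM1 and Nadia, and it passed in all 4 strain pairs (difference 0.64, SE 0.09, adjusted p = 0.000217). Its other probe set gave 0.74, and tefb gave 0.68. ddb2, which recognizes ultraviolet lesions in DNA and was listed with DNA repair, was 5.83 to 7.04 (median 6.53) against 5.22 to 6.81 (median 5.41), higher by 0.87 (SE 0.17, adjusted p = 0.00345). Of the 30 DNA repair genes, 3 were higher and 3 lower, beside 8.07% higher and 5.75% lower of all genes.

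The members that were lower included activators of the loop and the D-box repressor nfil3-5. nfil3-5 read 7.67, 7.63, 6.90 and 7.68 in SH and 7.04, 7.04, 7.13 and 7.42 in Gaighatta, against 9.13, 9.84, 8.89 and 9.28 in TM1 and 8.70, 8.69, 8.87 and 7.07 in Nadia. Only Nadia M2 fell within the SH and Gaighatta range (difference −1.49, SE 0.22, adjusted p = 0.000436). rorcb, a nuclear receptor of the ROR family, which opposes REV-ERB, read 5.04, 5.00, 4.89 and 5.60 in SH and 5.02, 4.95, 5.07 and 5.51 in Gaighatta, against 6.86, 7.40, 6.97 and 7.14 in TM1 and 6.11, 6.63, 6.65 and 4.97 in Nadia. The 2 strains on the SH and Gaighatta side had nearly equal means, 5.13 and 5.14, and the contrast was −1.46 (SE 0.20, adjusted p = 0.00024). bmal1a (−0.62), clockb (−0.43) and fbxl3a (−0.50), the last an F-box protein that marks cryptochromes for degradation, were lower too. csnk1db, a casein kinase that phosphorylates period proteins, was higher by 0.29.

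Within the clock list, Nadia M2 lay with SH and Gaighatta in ciarta, bhlhe41, nr1d2b, rorcb and nfil3-5. For nr1d2b it read 9.87, against at most 9.39 in the other Nadia pools. Nadia M2 was also the highest TM1 or Nadia pool for per2 (9.36) and cry-dash (5.63). Without this pool 14 clock genes were higher in place of 11. Without the strain labelled TM1 only 2 clock genes were higher, and without Gaighatta 4 were higher and 2 lower. In the 8 male pools alone, with 4 per side, 0 were higher and 0 lower. The 8 female pools alone, also 4 per side, gave 12 higher and 4 lower. SH did not pass against Nadia in limma for ciarta (adjusted p = 0.265), bhlhe41 (0.288), nr1d2b (0.268) or per2 (0.625). Nor did this pair pass for cry-dash (0.539), nfil3-5 (0.13) or rorcb (0.0591). For bhlhe41 and per2, SH did not pass against TM1 either (adjusted p = 0.0527 and 0.137 in limma). Light and dark periods in the facility were held constant, and no source used here states the hour of sampling by strain.

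**Figure D2:**
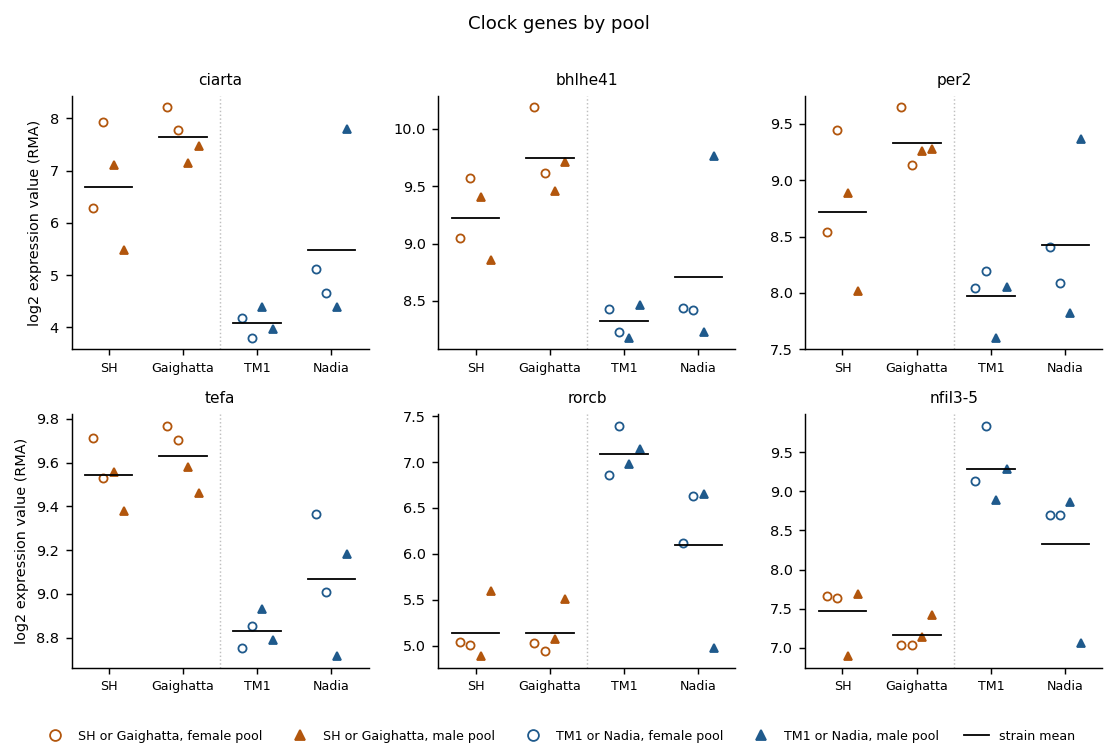
Log2 expression values of 6 clock genes in the 16 pools (open circles female, filled triangles male, black bars strain means), with SH and Gaighatta left of TM1 and Nadia. Nadia M2 lies apart from the other Nadia pools in all but tefa, at 7.79 for ciarta and 7.07 for nfil3-5.

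Keratins and other epithelial transcripts were lower in SH and Gaighatta. Keratins form the intermediate filaments of epithelia. In pooled tissue, fewer cells of a type and less RNA per cell cannot be told apart. Of 14 measured epithelial markers, 7 were lower and 0 higher in limma (10 lower and 0 higher at an unadjusted p under 0.05), with a median difference of −1.07. Of all 4922 genes, 5.75% were lower and 8.07% higher, and 590 were lower and 876 higher at an unadjusted p under 0.05. The keratin krt5 was 9.62, 8.84, 11.00 and 8.88 in SH and 8.61, 7.61, 8.92 and 9.00 in Gaighatta, against 11.18, 10.77, 9.58 and 10.77 in TM1 and 9.19, 11.51, 10.84 and 10.14 in Nadia. SH M1 was the only SH or Gaighatta pool above 10, and Nadia F1 the lowest of the other side (difference −1.44, SE 0.36, adjusted p = 0.0145). krt15 ran from 4.62 to 7.09 (median 5.25) against 5.92 to 9.84 (median 7.29) (difference −1.69, SE 0.46, adjusted p = 0.0208), and krt91 differed by −1.46. icn2, an S100-type calcium-binding protein of fish epithelia, was 5.19 to 7.59 (median 6.16) against 6.54 to 8.41 (median 7.64), a difference of −1.38 (SE 0.27, adjusted p = 0.00338).

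The other called markers were icn (−1.16), the annexin anxa1a (−1.03) and agr2 (−0.91), a protein of mucus-secreting cells. krt4 differed by −1.64 with an adjusted p of 0.0571, and krt8 by −0.01. Outside the list, the keratin krt97 (−2.04), s100w (−1.42), the cofilin family member cfl1l (−1.34) and the E-cadherin gene cdh1 (−0.72) were also lower. The mean over the 14 markers ran from 5.96 to 7.82 (median 6.61) in SH and Gaighatta against 6.77 to 9.03 (median 7.61) in TM1 and Nadia. Single pools carried much of this spread. SH M1 was the highest of its side and Nadia F2 the highest of all, and Nadia F1, at 6.77, lay among the SH and Gaighatta pools. Without both Nadia F2 and SH M1, 9 of the markers were called lower in place of 7. For krt5, krt15, krt91, krt97 and icn2, SH passed against neither TM1 nor Nadia (adjusted p from 0.107 to 0.517 in limma). Gaighatta passed against both, except for krt15 against TM1 (adjusted p = 0.0943 in limma). Without the strain labelled Gaighatta 0 of the markers were called and without TM1 2. In female pools alone 1 was called and in male pools 0.

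A set of interferon-linked and antigen presentation genes was lower in SH and Gaighatta. Interferons induce antiviral proteins together with immunoproteasome subunits, which cut peptides for display by MHC molecules. Of 12 interferon-linked genes, 5 were lower and 0 higher in limma, with a median of −0.42, and 8 were lower and 1 higher at an unadjusted p under 0.05. Of 14 antigen presentation genes, 8 were lower and 1 higher (median −0.38). Over all 4922 genes, 5.75% were lower and 8.07% higher, with 590 lower and 876 higher at an unadjusted p under 0.05. isg15, a ubiquitin-like protein made in response to interferon, had no overlap between the sides. It read 3.91, 3.89, 4.34 and 4.12 in SH and 4.02, 3.89, 4.12 and 3.85 in Gaighatta, against 4.84, 5.32, 7.20 and 6.08 in TM1 and 4.41, 4.45, 4.89 and 4.98 in Nadia (difference −1.25, SE 0.24, adjusted p = 0.00242). Both male TM1 pools stood above every other pool. SH and Gaighatta each passed against TM1 but not against Nadia (adjusted p = 0.313 and 0.176 in limma). irf1b, a transcription factor of the pathway, was 4.93 to 5.56 (median 5.21) against 5.37 to 7.73 (median 5.81), a difference of −0.98 (SE 0.25, adjusted p = 0.015). Its 2 highest values, 7.73 and 7.50, were again those of TM1 M1 and TM1 M2. For irf1b too, SH and Gaighatta passed against TM1 but not against Nadia (adjusted p = 0.647 and 0.319 in limma).

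Among the antigen presentation genes, psme2, a subunit of the PA28 proteasome activator, had no overlap either, at 5.99 to 6.38 (median 6.29) in SH and Gaighatta against 6.40 to 7.38 (median 6.70) in TM1 and Nadia (difference −0.54, SE 0.10, adjusted p = 0.00272). Here also, SH and Gaighatta passed against TM1 but not against Nadia (adjusted p = 0.143 and 0.0968 in limma). The immunoproteasome subunit genes psmb12 (−0.57), psmb8a (−0.57) and psmb9a (−0.47), the MHC class I partner b2m (−0.44) and the class II invariant chain genes cd74a (−0.32) and cd74b (−0.48) were lower. The tapasin gene tapbp.1, whose product loads peptides on class I molecules, was higher by 0.37. The MHC genes on the list (mhc1ufa, mhc1zba, mhc2daa and mhc2d4b) did not pass, the widest difference among them being −0.20 in mhc2daa. Without the pools TM1 M1 and TM1 M2, 4 antigen presentation genes and 2 interferon-linked genes were lower. Leaving out single pools gave 2 (without SH F1) to 8 (without TM1 F1) interferon-linked genes lower, and 1 was lower without the strain labelled TM1 or without Gaighatta.

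Of 17 markers of microglia and other leukocytes, 13 had a negative and 4 a positive difference (median −0.19). In limma 2 were lower and 0 higher (5 lower and 0 higher at an unadjusted p under 0.05). Of all 4922 genes, 5.75% were lower and 8.07% higher (590 and 876 at an unadjusted p under 0.05). The list mean was 5.15 to 5.46 in SH and Gaighatta against 5.27 to 6.21 in TM1 and Nadia. The 2 highest pools were TM1 M1 at 6.21 and TM1 M2 at 5.98, the same pools that were highest for isg15. The part of these cells in the interferon-linked values was not tested. TM1 M1 was also the lowest of all pools in the means of the neuron (9.58), myelin (7.81), radial glia (8.81) and connective tissue (5.37) markers. How this pool's profile bears on the contrasts was not tested. ctss2.2, a cathepsin S of phagocytes, was 4.87 to 5.80 (median 5.54) against 5.93 to 7.48 (median 6.25), with no overlap (difference −1.06, SE 0.20, adjusted p = 0.00211), and its other probe set gave −0.70. At the first probe set SH did not pass against Nadia (adjusted p = 0.241 in limma). Members that did not pass included c1qc (−0.35), spi1b (−0.17) and mpx (0.003).

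**Figure D3:**
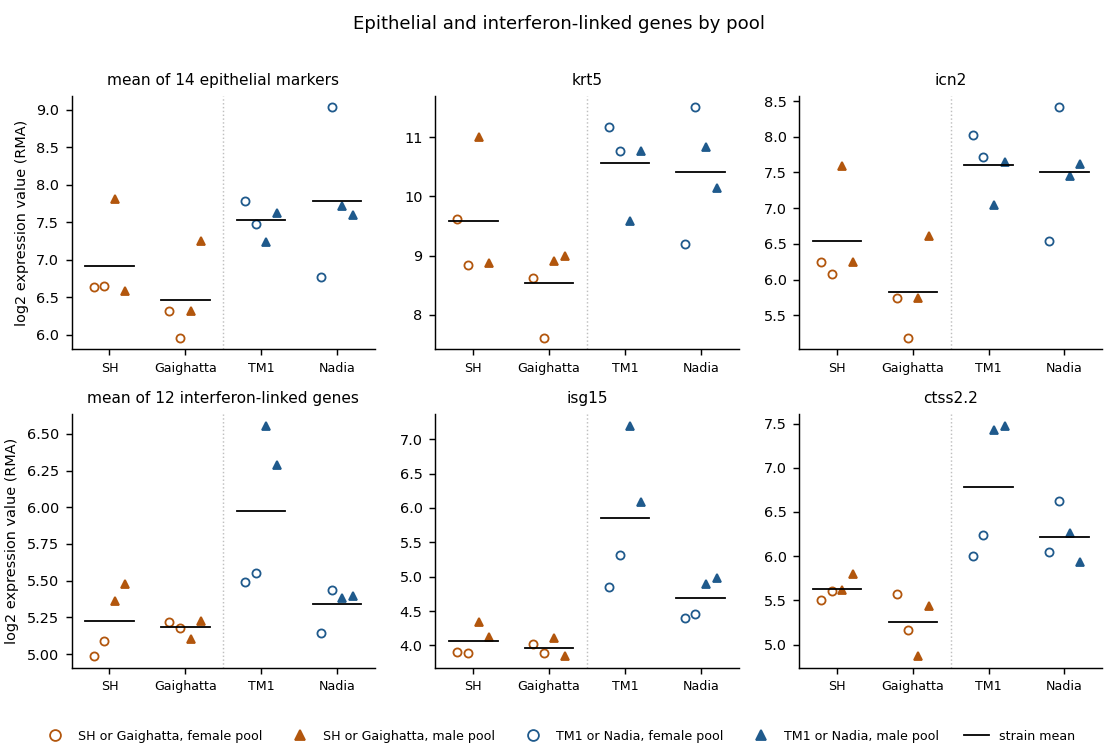
Log2 values by pool for the mean of 14 epithelial markers, krt5 and icn2 (top) and for the mean of 12 interferon-linked genes, isg15 and ctss2.2 (bottom), drawn as in the plot of clock genes. Nadia F2 (9.03) and SH M1 (7.82) are the highest epithelial means of their sides, and TM1 M1 and TM1 M2 have the highest interferon-linked means, 6.56 and 6.29.

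Several matrix genes were higher in SH and Gaighatta. Of 14 markers of meninges and connective tissue, 7 were higher and 0 lower in limma, with a median of 0.31, and 1 was lower at an unadjusted p under 0.05. The shares over all genes were 8.07% higher and 5.75% lower (876 and 590 of 4922 at an unadjusted p under 0.05). The mean over the 14 markers was 6.02, 6.05, 6.02 and 6.15 in SH and 5.80, 5.70, 5.65 and 6.02 in Gaighatta, against 5.64, 5.46, 5.37 and 5.53 in TM1 and 5.83, 6.02, 5.87 and 5.76 in Nadia. SH was high and TM1 low on this mean, and the Gaighatta and Nadia pools overlapped. col9a2, a fibril-associated collagen of cartilage, was 4.90 to 5.63 (median 5.19) against 4.66 to 4.90 (median 4.74) (difference 0.45, SE 0.09, adjusted p = 0.00506). Its sides nearly touched, at 4.901 in Gaighatta M1 and 4.9001 in Nadia F1. SH passed against neither TM1 nor Nadia (adjusted p = 0.0908 and 0.131 in limma). The cartilage collagen col2a1a was 5.34, 5.22, 5.61 and 5.29 in SH and 4.31, 5.46, 4.51 and 5.27 in Gaighatta, against 4.24, 4.37, 4.34 and 4.29 in TM1 and 4.79, 4.25, 4.86 and 4.69 in Nadia. It differed by 0.65 (SE 0.15, adjusted p = 0.00734), with 2 Gaighatta pools at the level of TM1 and Nadia. The remaining 5 were the matrix proteins sparc (0.44), thbs3a (0.35), fn1b (0.34) and bgnb (0.28) and the growth factor binding protein igfbp2a (0.41). Fibrillar collagen genes col1a1a (0.34) and col1a2 (0.28) did not pass. Of 5 endothelial markers, 2 were higher, the tight junction gene cldn5a (0.47) and the VEGF receptor gene kdrl (0.36), and the list median was 0.097. The connective tissue count was 1 without TM1 and 4 without either Gaighatta or SH.

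Chaperone genes as a list lay near the background. Of 54 measured, 7 were higher and 4 lower (median difference 0.042), while 8.07% of all genes were higher and 5.75% lower. calr, which encodes the lectin chaperone calreticulin, was 7.70 to 8.28 (median 7.98) in SH and Gaighatta against 5.43 to 7.57 (median 7.34) in TM1 and Nadia, with no overlap (difference 1.05, SE 0.19, adjusted p = 0.00211). SH and Gaighatta each passed against Nadia but not against TM1 (adjusted p = 0.209 and 0.128 in limma). The other calr probe set showed a difference of 0.03, so the 2 probe sets of calr disagree. The related calr3b (0.74), the collagen chaperone gene serpinh1b (0.71) and the prolyl isomerase gene fkbp9 (0.36) were higher. The cytosolic chaperone genes hspa8b (−0.57) and dnajc12 (−0.57) were lower.

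Of 34 genes of selenoproteins and redox control, 3 were higher and 0 lower, with a list median of −0.016. The share that was higher was near the 8.07% of all genes. gpx1a was 9.45 to 10.22 (median 9.73) against 8.72 to 9.52 (median 9.27), higher by 0.63 (SE 0.10, adjusted p = 0.0007), with the SH pools highest. For gpx1a Gaighatta did not pass against TM1 (difference 0.16, adjusted p = 0.428 in limma). gpx4a, which acts on lipid peroxides, differed by 0.41 (SE 0.10, adjusted p = 0.0115), with strain means of 9.15 in SH and 9.17 in Gaighatta, against 9.09 in TM1 and 8.41 in Nadia, so that only Nadia stood low. Of 36 lipid and cholesterol genes, 3 were higher and 1 lower, beside 8.07% higher and 5.75% lower of all genes. hmgcs1, an early enzyme of cholesterol synthesis, was higher by 0.67. The squalene synthase gene fdft1 (0.29) and the fatty acid desaturase gene fads2 (0.42) were higher too. The hmgcs1 means were 7.27 in SH and 6.51 in Gaighatta, against 5.93 in TM1 and 6.51 in Nadia, so Gaighatta and Nadia were level. The glutamine synthetase gene glula of astroglia (0.41) and the AMPA receptor subunit gene gria2a (0.46) were also called higher. Of 12 radial glia markers, 1 was higher and 1 lower. Of 13 glutamate and GABA genes, 2 were higher and 0 lower. For glula the strain means were 11.30 in SH and 11.61 in Gaighatta, against 10.87 in TM1 and 11.22 in Nadia, so SH was close to Nadia. For gria2a they were 8.83 in SH and 8.24 in Gaighatta, against 8.23 in TM1 and 7.92 in Nadia, so Gaighatta was level with TM1. The coactivator gene ppargc1b, known for its part in mitochondrial gene control, had a positive contrast at both of its probe sets (0.91 and 1.35). It averaged 6.72 in SH and 7.72 in Gaighatta, against 6.64 in TM1 and 5.97 in Nadia at 1 probe set, and 6.59 in SH and 8.99 in Gaighatta, against 6.66 in TM1 and 6.22 in Nadia at the other. SH did not pass against TM1 at either (adjusted p = 0.838 and 0.925 in limma). slc25a14, a mitochondrial carrier, was higher by 1.32 at 1 probe set and by 1.21 at a related one, but differed by −0.05 at another. At the first it averaged 5.59 in SH and 6.88 in Gaighatta, against 4.47 in TM1 and 5.36 in Nadia. SH passed there against neither TM1 nor Nadia (adjusted p = 0.0988 and 0.804 in limma).

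The microtubule protein gene maptb, which encodes tau, was lower without overlap. Its pools ran from 9.70 to 10.23 (median 10.04) in SH and Gaighatta against 10.30 to 10.63 (median 10.47) in TM1 and Nadia (difference −0.44, SE 0.06, adjusted p = 0.000295). Of 51 cytoskeletal genes 4 were higher, among them tuba2 (0.56) and tubb5 (0.33), and 5 lower. Some lists held no call in limma, which were hox genes (14), monoamine genes (9) and the markers of red blood cells (7), pituitary (4), pineal (2) and muscle (12). At an unadjusted p under 0.05, 3 of the red blood cell markers were higher, 1 monoamine gene and 1 muscle marker were lower, and none of the hox, pituitary and pineal genes passed. At that threshold 876 of all 4922 genes were higher and 590 lower. Muscle means varied from 5.33 to 9.32 in SH and Gaighatta against 6.59 to 9.15 in TM1 and Nadia, a spread within each side far above the median difference of −0.25. Among 61 respiratory chain genes 1 was higher and 5 lower, among 104 splicing genes 8 and 7, and among 34 vesicle release genes 3 and 2. For all genes the called shares were 8.07% higher and 5.75% lower.

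**Figure D4:**
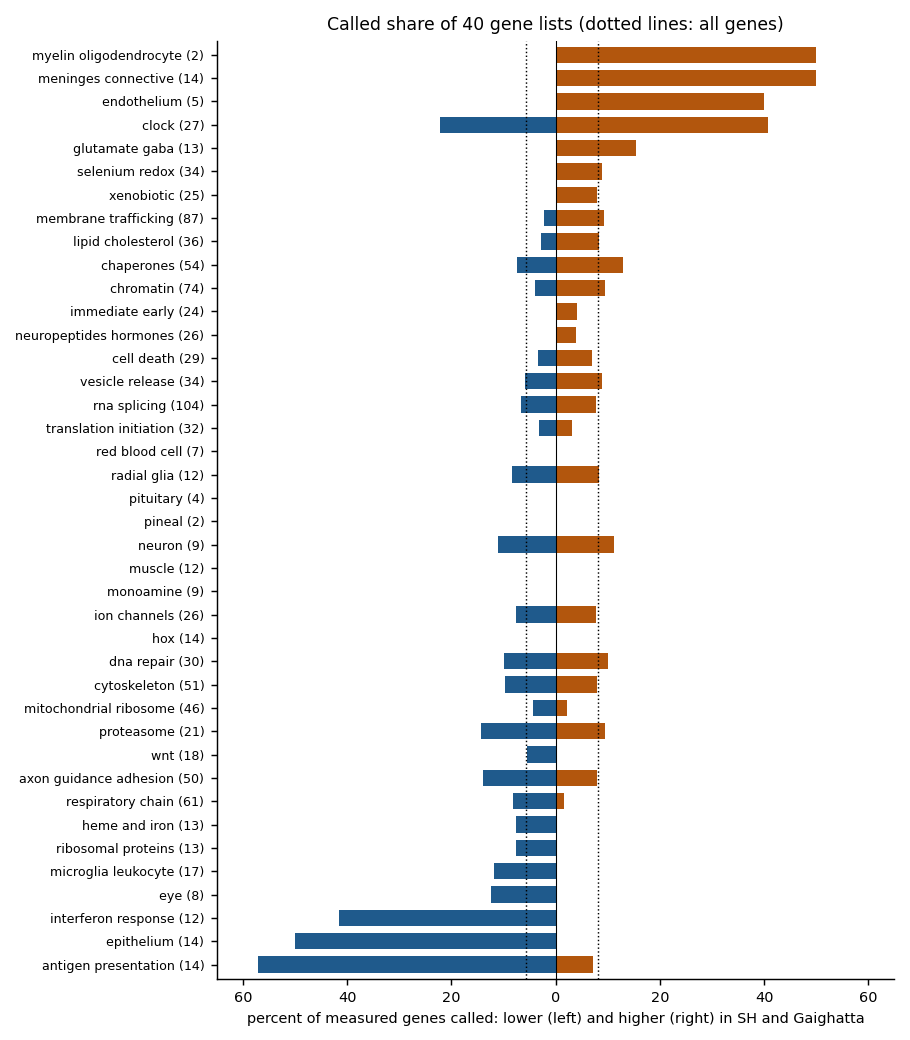
Percent of the measured genes of each gene list (28 pathway lists and 12 marker lists, number measured in parentheses) called lower (left, blue) and higher (right, orange) in SH and Gaighatta. The dotted lines mark all 4922 genes, 5.75% lower and 8.07% higher. The epithelium, interferon response and antigen presentation lists reach far left of theirs, while the clock and connective tissue lists reach far right. The myelin list (1 of 2 genes higher) and the endothelium list (2 of 5) also reach far right, on few genes.

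In 71 probe sets (0.896%) the 8 pools of SH and Gaighatta did not overlap with the 8 pools of TM1 and Nadia, and 70 of these were called, 35 higher and 35 lower. Of these 70, 23 carried no symbol. With each gene represented by its probe set of highest mean, 38 of 4922 genes (0.772%) were free of overlap. If each probe set could drop the 1 pool that overlapped most, 340 called probe sets would be free of overlap, including the 70 that needed none dropped. Among the named genes free of overlap, the steepest decrease was that of ndrg4, a member of the NDRG family expressed in brain and heart. It read 8.12, 7.67, 8.42 and 7.69 in SH and 8.49, 7.88, 8.96 and 7.60 in Gaighatta, against 9.45, 9.69, 9.25 and 9.84 in TM1 and 9.97, 9.90, 9.73 and 9.80 in Nadia (difference −1.60, SE 0.17, adjusted p = 2.26e-05). The highest SH or Gaighatta pool, Gaighatta M1, remained below the lowest TM1 or Nadia pool, TM1 M1.

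snap23.1 encodes a SNARE protein of membrane fusion. Its values were 4.76, 5.17, 5.34 and 4.95 in SH and 4.77, 4.80, 4.85 and 5.16 in Gaighatta, against 6.29, 5.86, 6.33 and 5.96 in TM1 and 6.14, 6.10, 5.99 and 5.72 in Nadia. The sides were about 2-fold apart (difference −1.07, SE 0.10, adjusted p = 8.1e-06) and the strains of a side lay close to each other. nrarpa, a feedback inhibitor of Notch signaling, was 3.68 to 4.42 (median 4.18) against 4.80 to 5.75 (median 5.06), a difference of −1.01 (SE 0.12, adjusted p = 6.42e-05). The other nrarpa probe set, which read 6.50 to 7.02 against 6.23 to 7.02, differed by −0.02, so the result rests on 1 of 2 probe sets. mdh1ab, a cytosolic malate dehydrogenase, was 6.98 to 7.51 (median 7.15) against 7.58 to 8.04 (median 7.73), a difference of −0.57 (SE 0.09, adjusted p = 0.000476).

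In the opposite direction, trnau1apb, whose family assists selenocysteine transfer RNA, read 5.95, 5.80, 5.74 and 5.83 in SH and 6.18, 5.80, 5.90 and 5.36 in Gaighatta, against 5.09, 5.13, 5.04 and 5.11 in TM1 and 5.30, 4.99, 5.01 and 5.09 in Nadia (difference 0.73, SE 0.09, adjusted p = 0.000137). The other trnau1apb probe set gave 0.19 and did not pass. zgc:136864 was 5.77 to 6.80 (median 6.56) against 4.93 to 5.75 (median 5.21), higher by 1.13 (SE 0.13, adjusted p = 4.01e-05), but a second probe set of this gene gave 0.22 with an adjusted p of 0.14. spryd7b, a SPRY domain protein, was 7.83 to 8.45 (median 8.22) against 5.96 to 7.63 (median 6.36), a difference of 1.61 (SE 0.22, adjusted p = 0.00025), with Nadia M2 (7.63) and TM1 F1 (7.58) nearest to the other side. hells, a chromatin remodeling helicase, was 4.30 to 4.65 (median 4.47) against 3.81 to 4.25 (median 4.00), higher by 0.49.

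All 4 strain pairs passed for 18 named probe sets, each of a different gene. Besides tefa and the 8 genes just described, they were the splicing factor gene u2surp (−1.21), fam168a (−0.57), thap4 (−0.39), fkbp9 (0.36), the nucleolar GTPase gene gnl3 (0.44), the epidermal growth factor receptor inhibitor gene errfi1a (0.45), the 14-3-3 gene ywhaqa (0.45), the homeodomain gene pbx4 (0.45) and the carbonic anhydrase family member ca10a (0.56). The remaining 10 of the 28 carried no symbol. Of the 28, 22 had no overlap between pools. With strain as a random block the 8 called were ndrg4, snap23.1, nrarpa, trnau1apb, zgc:136864 and 3 probe sets without a symbol. Other genes without overlap included the ceramide synthase gene cers2a (0.82), the deiodinase gene dio1 (−0.58), the carnitine acetyltransferase gene crata (−0.62), mgst3a (−0.90) and the nuclear import receptor gene tnpo2a (−1.07). pgm1, thap4 and nucb1 were each free of overlap at 2 probe sets.

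**Figure D5:**
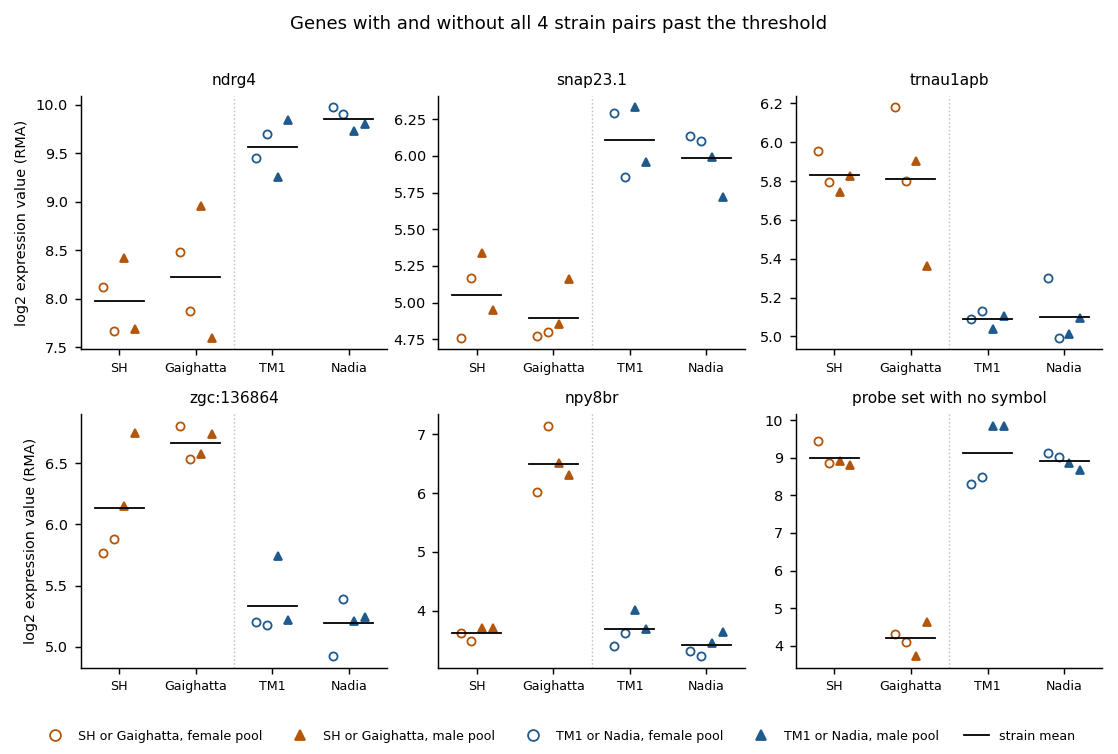
Log2 values by pool, drawn as in the plot of clock genes, for 4 genes in which all 4 strain pairs passed (ndrg4, snap23.1, trnau1apb and zgc:136864) and for npy8br and a probe set with no symbol, in which Gaighatta alone stood apart. In ndrg4 the 8 left pools end at 8.96 and the 8 right pools begin at 9.25, while npy8br is at 6.02 to 7.14 in Gaighatta and at most 4.01 in every other strain.

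Many calls rested on 1 strain. In 247 called probe sets Gaighatta stood apart from each of the other 3 strains while these did not differ among themselves, and the corresponding counts were 45 for SH, 26 for TM1 and 24 for Nadia. The largest decrease of the table, a probe set without a gene symbol (difference −2.42, SE 0.21, adjusted p = 4.52e-06), was of this kind. It read 9.44, 8.85, 8.92 and 8.81 in SH and 4.30, 4.11, 3.73 and 4.64 in Gaighatta, against 8.30, 8.48, 9.83 and 9.85 in TM1 and 9.13, 9.01, 8.87 and 8.69 in Nadia. npy8br, a neuropeptide Y receptor gene, averaged 3.62 ± 0.11 in SH and 6.50 ± 0.48 in Gaighatta, against 3.68 ± 0.25 in TM1 and 3.41 ± 0.18 in Nadia (SD, n = 4 pools each; difference 1.52, SE 0.13, adjusted p = 4.52e-06). A second probe set without a symbol (difference −1.91) was high in TM1 alone. It averaged 2.76 ± 0.30 in SH and 2.67 ± 0.09 in Gaighatta, against 6.57 ± 1.05 in TM1 and 2.68 ± 0.10 in Nadia.

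For 2 named genes the sign of the contrast came from Gaighatta. scamp5a, a secretory carrier membrane protein gene, averaged 10.02 ± 0.47 in SH and 6.00 ± 0.28 in Gaighatta, against 8.23 ± 1.20 in TM1 and 10.51 ± 0.37 in Nadia, a contrast of −1.36 (SE 0.29, adjusted p = 0.00605) that became 0.65 without Gaighatta. wls, which carries Wnt proteins to the cell surface, averaged 6.20 ± 0.39 in SH and 2.74 ± 0.15 in Gaighatta, against 6.60 ± 0.34 in TM1 and 5.10 ± 0.72 in Nadia at 1 probe set (contrast −1.38, SE 0.20, adjusted p = 0.000311). Without Gaighatta it was 0.35, and the other wls probe sets gave 0.55 and 0.10 and did not pass. Among other genes the study discusses, cyp1a, a xenobiotic-metabolizing enzyme, differed by 0.98 with an adjusted p of 0.0876. selenop, sypb, synprb, acbd3 and acbd4 did not pass. The study named cyp1a for differences among strains and the others for domesticated against wild strains. Here each side mixes a domesticated and a wild strain, so the contrast is a different one. Differences of probe sequence between strains and differences of transcript level were not separated here, since single probe values were not used.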

How the data were processed

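Brain RNA of 16 zebrafish pools was measured on Affymetrix arrays. The authors ran RMA (background correction, quantile normalization, median polish) in the affy package, whose version no source used here states, and deposited 1 log2 value per probe set and array. Their methods name an interquartile range of 0.5 as a filter, yet 7068 of the 7922 tested probe sets lie under it. Groups follow the deposited labels. A mean per strain was fitted with limma 3.58.1 in R 4.3.3, then SH and Gaighatta were contrasted with TM1 and Nadia, and eBayes moderated the variances. The p values were adjusted by Benjamini and Hochberg over all 7922 probe sets, with 0.05 as the threshold. The 16 arrays limit the precision. Where a gene had several probe sets, the one of highest mean represented it in its list. Members and lists were chosen with earlier results of these data known. Named were the 12 largest increases and 12 largest decreases with separated strain means, up to 4 called members per list, up to 2 probe sets without a symbol per direction and genes the study names; genes with separate pools were named after their values were seen. Symbols came from the platform annotation, updated by Entrez ID for 5601 probe sets with 0 changed. Alternatives concerned filters, scaling, the variance model, strain, sex and the samples included. The fit was tested on simulated data. The probe-level polymorphism filter, by which the study removed many of these probe sets before its strain tests, was not applied. The probe sets it removed are thus among the 7922 tested.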

Additional observations from a re-analysis of the deposited data

Results flagged for a closer look

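In 11 of 172 groups of 4 pools of a strain, over the probe sets with values in the text, 1 pool lay far from the other 3 by Dixon's test. Chance gives about 1 in 20. Nadia M2 was the outlying pool for bhlhe41 (9.76, against 8.23 to 8.44 in the other Nadia pools), nfil3-5 (7.07, against 8.69 to 8.87), spryd7b (7.63, against 6.08 to 6.34), mdh1ab (8.04, against 7.58 to 7.64) and scamp5a (9.96, against 10.67 to 10.73). SH M1 was the outlying pool for nfil3-5 (6.90, against 7.63 to 7.68 in the other SH pools), icn2 (7.59, against 6.07 to 6.25) and nrarpa (4.42, against 4.31 to 4.32). The remaining cases were Gaighatta M1 for spryd7b (8.17, against 8.43 to 8.45), TM1 M1 for zgc:136864 (5.75, against 5.18 to 5.22) and SH F1 for mdh1ab (7.51, against 7.04 to 7.09).

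The GFP control probe set, which no comparison used, was at 8.58 in the lowest of the 4 pools labelled Gaighatta, against 2.80 to 3.36 in the other 12 pools. GFP is the transgene of TM1, so these 4 arrays go against their strain label.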

How the results depend on the processing

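Leaving out single pools gave 898 (without Nadia M1) to 1179 (without Nadia M2) called probe sets, 491 to 679 higher and 396 to 526 lower, with 76 to 140 free of overlap and 20 to 57 passing all 4 strain pairs, both highest without Nadia M2. Ranges can only narrow when a pool is left out, so the counts free of overlap are not like the 70 of all 16 pools. The sex interaction had 0 to 22 calls (22 without Nadia F1). The lists ranged from 10 to 14 (clock, higher), 6 to 6 (clock, lower), 7 to 9 (epithelium), 5 to 8 (antigen presentation), 2 to 8 (interferon-linked, lowest without SH F1, highest without TM1 F1) and 5 to 7 (connective tissue).

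Filters lowered both the number of probe sets tested and the number called. With an interquartile range of at least 0.5, 403 of 854 tested were called (193 higher, 210 lower, 27 free of overlap). That is a larger share than the 14.6% called in the whole table. With a mean of at least 6, 631 were called (391 higher, 240 lower, 31 free of overlap, 15 in all 4 pairs). At an adjusted p under 0.01, 474 were called (264 higher, 210 lower, 64 free of overlap, 7 in all 4 pairs). Of the 1158 calls at 0.05, 340 were free of overlap where each probe set could drop its own worst pool. Treating the sides as 2 groups without strain gave 471 (260 higher, 211 lower). Strain as a random block gave 8 (3 higher, 5 lower, 8 free of overlap), with a within-strain correlation of 0.24. This model gave 882 of 7922 at an unadjusted p under 0.05. The 4 strain means as samples gave 0 calls, 0 higher, 0 lower and 0 free of overlap. The sex interaction had 1 call with quantile normalization again, with arrays centred on the median and without moderated variances.

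Female pools alone gave 417 calls (219 higher, 198 lower, 243 free of overlap, 10 in all 4 pairs). These held 12 clock genes higher and 4 lower, with 1 epithelial, 2 antigen presentation, 2 interferon-linked and 1 connective tissue call. Male pools alone gave 108 (45 higher, 63 lower, 0 in all 4 pairs), with 0 clock genes higher and 0 lower, 0 epithelial, 2 antigen presentation and 0 connective tissue calls. Both halve the samples. Without SH, 831 probe sets were free of overlap and 4 connective tissue genes were called. Without Gaighatta, 422 were called (212 higher, 210 lower, 230 free of overlap), with 4 clock genes higher and 2 lower, 0 epithelial, 2 antigen presentation, 1 interferon-linked and 4 connective tissue calls, and scamp5a (0.65) and wls (0.35) changed sign. Without TM1, 668 were called (315 higher, 267 free of overlap), with 2 clock genes higher and 2 epithelial, 4 antigen presentation, 1 interferon-linked and 1 connective tissue call, and the probe set without a symbol that was high in TM1 changed sign (0.038). Without Nadia, 376 were free of overlap and 8 interferon-linked genes were called. Ranges over fewer pools are narrower, so these counts free of overlap are not comparable with the 70 of all 16 pools. The cause of the other shifts was not tested.

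Chosen after seeing the data, leaving out TM1 M1 and TM1 M2 gave 122 free of overlap, 4 antigen presentation and 2 interferon-linked calls, and leaving out Nadia F2 and SH M1 gave 117, 5 and 3. Epithelial calls were 6 without TM1 M1 and TM1 M2 and 9 without Nadia F2 and SH M1, against 7 with all pools. A block of sex and replicate number gave 1320 calls (775 higher, 545 lower). Deviations of same-numbered pools correlated at −0.23 to 0.31 over 12 pairs of groups, with 3 above 0.1. There was no reference value for paired pools, so this does not settle whether the numbers pair the pools. Of the differences of single probe sets under all alternatives, 1372 kept their direction and side of the threshold, 190 kept only the direction and 3 changed sign. Arrays without single-probe values limit the separation of probe sequence from transcript level.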
